A study of Mus musculus with 11 samples.

Results

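Transcripts of 9 genes of the IL-23, IL-17 and IL-22 axis were measured in terminal ileum of naive mice, with each mouse read on its own Illumina MouseRef-8 bead array. The members were chosen by the symbols that the arrays use (IL23A, IL12B, IL17A, IL17F, IL22, IL23R, IL17RA, IL17RE and IL22RA1), which are the cytokine genes Il23a, Il12b, Il17a, Il17f and Il22 and the receptor genes Il23r, Il17ra, Il17re and Il22ra1, which the arrays read with 13 of their 25697 probes. Of the 11 arrays of the study 8 were used. They held 5 SKG mice (replicates 4 to 8, all of batch 3) and 3 BALBc mice (replicates 1 and 2 of batch 2, replicate 3 of batch 3), each a separate animal per the labels and aged 8 to 12 weeks. SKG mice have a BALB/c background and carry a point mutation in Zap70, whose kinase relays signals of the T cell receptor. Neither strain had been given a treatment. The 3 arrays of batch 1, all SKG, were left out because their rows are out of step with the probe names.

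IL-23 is a dimer of the chain encoded by Il23a with the chain encoded by Il12b, which it shares with IL-12, and it is made by macrophages and dendritic cells. Through its receptor, IL-23R with IL-12Rβ, it acts on T cells and innate lymphoid cells that make IL-17A, IL-17F and IL-22. IL-17A and IL-17F signal through IL-17RA with IL-17RC, IL-17C signals through IL-17RA with IL-17RE, and IL-22 signals through IL-22RA with IL-10RB on epithelium, where the axis is known for inducing antimicrobial proteins and mucosal defence.

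The promoters of 4 members are printed here because these genes stand for both sides of the comparison: Il17a and Il17f were not above background on any array, while Il17re and Il22ra1 were the members above background on enough arrays to be kept for the test. The sequences are RefSeq windows of the GRCm38.p6 assembly, which is that of C57BL/6J and not of BALB/c, from 250 bases before to 50 bases after the start the table gives for a gene, which for Il17f, Il17re and Il22 lies inside the gene's outer bounds. They lie at chr1:20730655-20730954 (plus strand) for Il17a, chr1:20784221-20784520 (minus strand) for Il17f, chr6:113458521-113458820 (plus strand) for Il17re and chr4:135727909-135728208 (plus strand) for Il22ra1. Capitals mark the letters TATAAA (a core promoter box, searched on the gene's own strand) and GGGCGG (GC box, searched on both strands). The STAT motif TTCNNNGAA was searched on both strands as well.
Il17a: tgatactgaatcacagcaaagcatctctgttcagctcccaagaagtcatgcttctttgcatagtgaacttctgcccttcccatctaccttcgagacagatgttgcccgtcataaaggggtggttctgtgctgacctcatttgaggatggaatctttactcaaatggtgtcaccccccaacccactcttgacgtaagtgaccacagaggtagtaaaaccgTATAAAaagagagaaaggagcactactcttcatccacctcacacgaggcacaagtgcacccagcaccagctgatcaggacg
Il17f: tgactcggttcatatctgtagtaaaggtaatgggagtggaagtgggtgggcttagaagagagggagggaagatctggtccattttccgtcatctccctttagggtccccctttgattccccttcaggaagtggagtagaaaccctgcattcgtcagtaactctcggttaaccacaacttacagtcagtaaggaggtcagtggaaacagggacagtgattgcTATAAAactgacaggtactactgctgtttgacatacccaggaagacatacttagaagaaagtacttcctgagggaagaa
Il17re: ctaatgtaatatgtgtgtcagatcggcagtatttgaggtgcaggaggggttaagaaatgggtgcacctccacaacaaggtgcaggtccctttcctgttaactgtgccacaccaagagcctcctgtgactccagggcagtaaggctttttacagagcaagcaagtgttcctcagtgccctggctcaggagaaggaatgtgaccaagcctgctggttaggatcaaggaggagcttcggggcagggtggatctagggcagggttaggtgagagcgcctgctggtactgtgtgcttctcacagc
Il22ra1: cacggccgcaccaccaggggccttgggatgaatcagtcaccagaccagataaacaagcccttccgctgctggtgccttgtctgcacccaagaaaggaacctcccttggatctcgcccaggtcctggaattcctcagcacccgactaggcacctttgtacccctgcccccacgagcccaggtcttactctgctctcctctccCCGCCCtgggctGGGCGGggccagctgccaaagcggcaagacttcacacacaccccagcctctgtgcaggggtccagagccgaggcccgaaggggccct

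Of the 9 members 7 had a promoter window in the table. TATAAA was in the windows of the cytokine genes Il17a (position −31 from the start), Il17f (−29) and Il22 (−170), and in none of the windows of Il12b, Il23r, Il17re and Il22ra1. Of all 32851 windows 8.32% hold it. GGGCGG was found 2 times in Il22ra1 and in no other member, against 35.7% of all windows. TTCNNNGAA was in none of the 7, against 8.3% of all windows. No motif match overlapped another in the printed windows, and the Il17re window held none of the 3. The Il22ra1 window held 11 CpG dinucleotides and that of Il17re 3, with a median of 7 over all windows. On the chromosomes, 3 of the 4 receptor genes (Il23r, Il17ra and Il17re) lie on chromosome 6, and the start of Il17rc lies 697 bases beyond the end of Il17re. Il17a and Il17f are 42.6 kb apart on chromosome 1.

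The 8 arrays fell into batches that differ in brightness. The median signal was 187.5 and 163.0 on the 2 arrays of batch 2 and 98.5 to 105.6 on the 6 arrays of batch 3, while 48.4% to 54.8% of probes per array were above background, meaning brighter than the negative controls at a detection p under 0.05. BALBc replicate 3 is the only BALBc array in the batch of the SKG arrays, so the strain differences of the members are given for that batch as well. SKG replicate 6 stood apart: its median rank correlation with the other SKG arrays was 0.866, against 0.887 to 0.89 for the rest. As a check of the tissue, 8 of 10 intestinal epithelium markers and 4 of 5 ileal enterocyte markers were above background on at least 3 arrays. Fabp2 and the bile acid transporter gene Slc10a2 were not above background on any array. With 3 BALBc arrays in all, and only replicate 3 in the SKG batch, array number and batch layout both bound the precision of strain differences.

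The first comparison set the cytokines against the receptors by detection, since each probe is then read against the negative controls of its own array and not against another probe. No cytokine transcript was measurable in naive ileum of either strain by the rule used here (above background on at least 3 of the 8 arrays), whereas 2 of the 4 receptor genes were. Of the 6 cytokine probes none met the rule and of the 7 receptor probes 3 did, against 53.6% of all probes on the array. Over single readings, 4 of 48 cytokine values (8.33%) and 22 of 56 receptor values (39.3%) were above background, against 50.8% of all values. Most of these receptor values came from 1 gene: 2 Il17re probes were above background on all 8 arrays each, Il22ra1 on 4 and Il17ra on 2. By the definition of the threshold about 0.05 of negative controls lie above it. The receptors as a group were therefore not all above background in naive ileum: the Il23r probe and 2 of the 4 Il17re probes were below it on every array. Whether the probes at background read their transcripts was not tested, for cytokines or receptors.

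**Figure D1:**
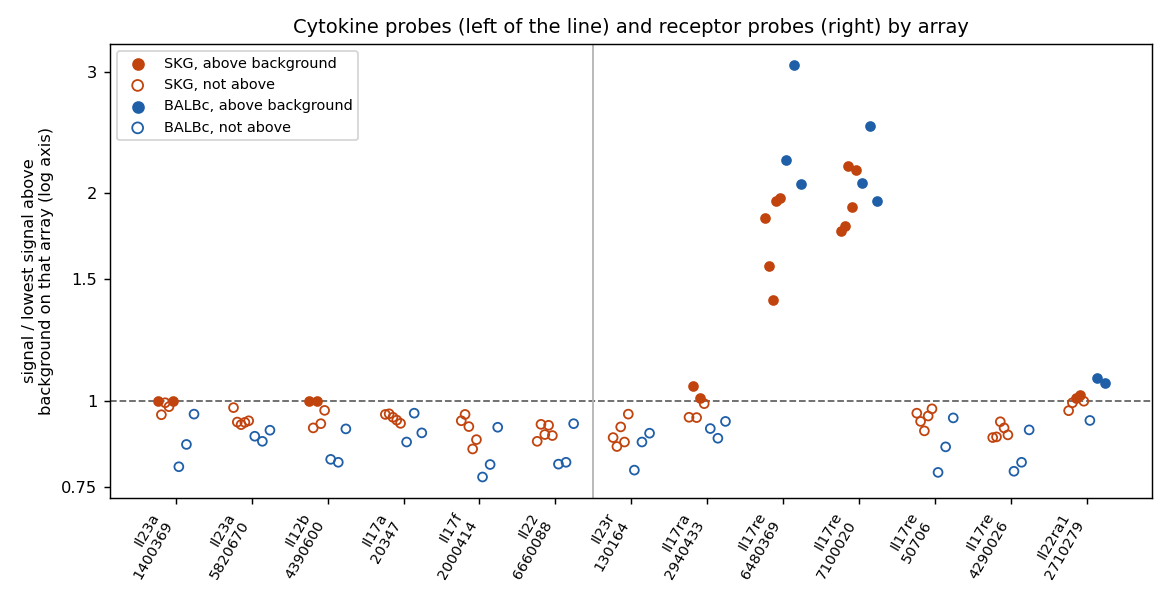
Signal of the 13 member probes on each array, divided by the lowest signal of any probe above background on that array (log axis), with SKG in red, BALBc in blue, and filled points above background at a detection p under 0.05. No cytokine probe exceeds 1.00, where 4 readings just pass the threshold, Il17ra and Il22ra1 reach 1.05 and 1.08, and 2 Il17re probes lie between 1.40 and 3.07.

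Among the cytokines, the effector genes gave background readings throughout. Il17a, the founding member of the IL-17 family, read 94.2, 99.7, 95.2, 98.2 and 96.7 signal units in SKG replicates 4 to 8 and 157.3, 145.6 and 93.3 in BALBc replicates 1 to 3. The 2 high readings are those of the brighter batch 2, and none was above background (lowest detection p 0.104). Il17f, its closest relative, read 89.2 to 99.5 in batch 3 and 139.9 and 122.7 in batch 2, with a lowest detection p of 0.212. Il22, the cytokine that acts on epithelium and not on leukocytes, read 86.1 to 96.5 in batch 3 and 146.1 and 123.6 in batch 2, with a lowest detection p of 0.41. The lowest signal that counted as above background was 98.6 to 104.8 on the arrays of batch 3 and 180.6 and 151.9 on those of batch 2. Transcripts under these floors were not detectable with these arrays, which is not the same as absent. Il17a, Il17f and Il22 were read by 1 probe each, so a low level and a probe that reads its transcript poorly cannot be told apart.

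Probes for both chains of the inducing cytokine IL-23 gave single readings at the edge of the detection threshold. The brighter Il23a probe read 98.8, 99.4, 99.9, 102.7 and 104.6 in SKG replicates 4 to 8 and 144.9, 131.3 and 99.3 in BALBc replicates 1 to 3. It passed the detection threshold in SKG replicates 4 and 8 (detection p 0.0439 in both) and on no BALBc array. The other Il23a probe passed on no array (lowest detection p 0.11). Il12b read 98.8, 95.1, 101.0, 97.0 and 101.0 in SKG and 148.5, 123.7 and 94.6 in BALBc, and passed in SKG replicates 4 and 6 (detection p 0.0439 in both). All 4 cytokine readings above background were thus from SKG arrays, which gave 30 of the 48 cytokine readings. Each was at the same detection p just inside the threshold, and none remained at a detection p under 0.01. Over all probes, 64258 of 128485 SKG readings and 40264 of 77091 BALBc readings were above background. Only SKG replicate 4 passed for both chains of IL-23. The median bead standard error in SKG was 2.76 signal units for the brighter Il23a probe and 2.79 for Il12b. With both groups at or under background, no fold is given for any cytokine gene.

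Among the receptors, Il17re carried the only clear signal. Il17re encodes the IL-17C binding chain, known in mouse from epithelium. Its probe 6480369 read 181.8, 163.4, 140.4, 204.6 and 205.9 signal units in SKG replicates 4 to 8 and 403.4, 466.0 and 214.3 in BALBc replicates 1 to 3. Its probe 7100020 read 173.9, 186.7, 220.4, 200.1 and 225.0 in SKG and 373.7, 380.1 and 202.6 in BALBc. On all 8 arrays both were brighter than every negative control. The other probes, 50706 and 4290026, were above background on no array (lowest detection p 0.158 and 0.565), so the 4 probes of this gene disagree. RefSeq lists several Il17re transcripts, and the files do not say which of them each probe reads.

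Il22ra1, the chain that makes epithelium respond to IL-22, was close to the threshold. Its probe read 95.3, 103.5, 102.0, 106.5 and 104.1 in SKG replicates 4 to 8 and 169.1, 163.8 and 110.5 in BALBc replicates 1 to 3. It was above background on 4 arrays, 2 of each strain (SKG replicates 6 and 7, BALBc replicates 2 and 3), with SKG replicate 8 just outside at a detection p of 0.0501. Il17ra, the chain shared by the IL-17 receptors, read 93.3, 109.3, 95.1, 106.1 and 103.3 in SKG and 164.6, 134.0 and 96.9 in BALBc. It passed in SKG replicates 5 (detection p 0.00125) and 7 (0.0326) and was not tested further. Il23r, the chain specific to IL-23, read 87.2 to 99.7 in batch 3 and 143.3 and 132.3 in batch 2, with a lowest detection p of 0.277.

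The second comparison asked whether the measurable members differed between SKG and BALBc ileum. Signals were background-corrected, quantile normalised and put on a log2 scale, and all 13775 probes above background on at least 3 arrays were tested together. None of the 3 member probes kept by that filter, 2 of Il17re and 1 of Il22ra1, differed at a limma adjusted p under 0.05, and none did at an unadjusted p under 0.05. Without the filter all 13 member probes were tested and 0 passed. The probes added this way were above background on at most 2 of the 8 arrays, so their result cannot speak to a strain difference. Of all probes tested, 0.61% (84 probes) passed, of which 48 were higher (0.348% of those tested) and 36 lower (0.261%) in SKG. The values of SKG and BALBc overlapped for all 3 member probes, while they did not overlap for 15.3% of all probes tested (SKG lower for 5.25%).

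For Il17re probe 6480369 the normalised log2 signal was 7.30, 6.84, 6.86, 7.22 and 7.26 in SKG replicates 4 to 8 and 6.55, 7.07 and 7.43 in BALBc replicates 1 to 3. The lowest and the highest of the 8 values were both BALBc. The means were 7.09 ± 0.23 (SD, n = 5) and 7.02 ± 0.44 (SD, n = 3), and the fitted difference was −0.175 (SE 0.28, 95% interval −0.78 to 0.43, limma adjusted p = 0.833). For probe 7100020 the values were 7.18, 7.18, 8.08, 7.16 and 7.46 in SKG and 6.39, 6.64 and 7.28 in BALBc. The BALBc value of batch 3 lay inside the SKG range and both values of batch 2 lay below it. The means were 7.41 ± 0.39 (SD, n = 5) and 6.77 ± 0.46 (SD, n = 3), with a fitted difference of 0.325 (SE 0.33, 95% interval −0.39 to 1.04, limma adjusted p = 0.722). Within batch 3 the differences were −0.33 and 0.13, and BALBc animals of batch 2 differed from the BALBc animal of batch 3 by −0.61 and −0.77. The spread between batches within BALBc was thus wider than either difference between the strains.

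For Il22ra1 the normalised log2 signal was 4.51, 4.77, 5.04, 4.87 and 4.73 in SKG and 4.55, 4.81 and 5.19 in BALBc. The 2 strains covered nearly the same range. The means were 4.78 ± 0.19 (SD, n = 5) and 4.85 ± 0.32 (SD, n = 3), with a fitted difference of −0.273 (SE 0.25, 95% interval −0.81 to 0.27, limma adjusted p = 0.684) and −0.40 within batch 3. On 4 of the 8 arrays this probe was at background, and the difference was −0.0793 without background correction. The intervals reach 1.04 for Il17re probe 7100020 and −0.81 for Il22ra1, so equal levels were not shown. Without BALBc replicate 3 no batch holds both strains. Probe 7100020 then differed by 0.899 (limma adjusted p = 0.0235), in a fit where 2939 probes were called higher and 2217 lower.

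**Figure D2:**
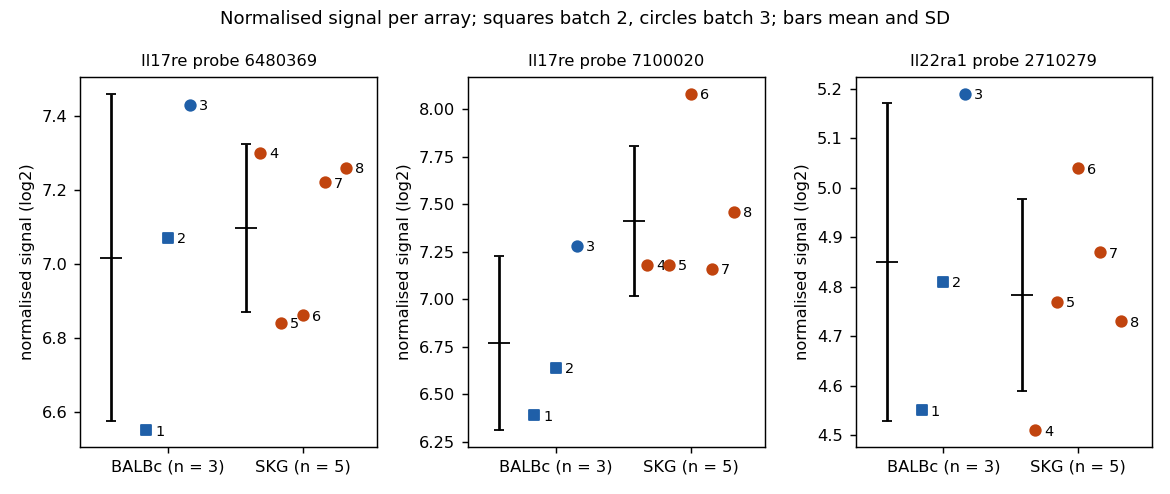
Normalised log2 signal per array of the 3 member probes that were tested, in BALBc and SKG, with squares for batch 2, circles for batch 3, replicate numbers beside the points and bars for the mean and SD. The strains overlap in each panel. For Il17re probe 6480369, SKG replicates 5 and 6 are the lowest SKG points (6.84 and 6.86), with BALBc replicate 1 lower (6.55). SKG replicate 6 is the highest point for probe 7100020 (8.08).

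The Il17re probes did not order the animals alike. Across the 8 arrays, which share batches, Pearson's r between probes 6480369 and 7100020 was 0.285, and over the 5 SKG arrays it was −0.475. SKG replicate 6 stood out: its probe 6480369 differed from probe 7100020 by −1.23 on the log2 scale, while on the other 7 arrays this difference ran from −0.35 to 0.43. In raw signal the spread between SKG mice was 3.87 times the median bead standard error for probe 6480369 and 2.76 times for probe 7100020. For member probes above background on no array this ratio ran from 0.763 (Il23a probe 5820670) to 2.29 (Il23r). Without SKG replicate 6 the strain differences were −0.183 (limma adjusted p = 0.706) and 0.0742 (0.871). The genes most alike to probe 6480369 over the 8 arrays were Elp2 (r = 0.954), Pip5k1a (0.926) and Phf2 (0.91), and those most alike to probe 7100020 were Grhpr and Prmt1 (0.986 for both) and Fmo1 (0.983). They were picked as the highest of 10390 probes over arrays that share batches and are a description only.

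The partner chains and the ligand of Il17re were read on the same arrays and are named here after their values were seen. Il17rc, which pairs with IL-17RA, was above background on all 8 arrays by all 3 of its probes. Its brightest probe had a mean normalised log2 signal of 11.23 ± 0.72 (SD, n = 3) in BALBc mice and 10.84 ± 0.39 (SD, n = 5) in the SKG mice, with a fitted difference of 0.11 (SE 0.35, limma adjusted p = 0.922) and 0.43 within batch 3, and 2 of its 3 probes shared that sign. The fitted value and the difference of the means have opposite signs. BALBc replicates 1 and 2 were at 11.58 and 11.71, BALBc replicate 3 at 10.40 and the SKG mice at 10.37 to 11.44. Il10rb, the second chain of the IL-22 receptor, was also above background on all 8 arrays, but its level followed the batch: it was 9.72 and 9.37 in BALBc replicates 1 and 2, 6.73 in BALBc replicate 3 and 6.57 to 7.37 in SKG. Within batch 3 SKG differed by 0.20. Il12rb1, the partner of IL-23R, was above background on 1 array and Il17c, the ligand of IL-17RE, on none.

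Of the 32 other genes of the pathway, 20 were measured. None passed (limma adjusted p), 2 had an unadjusted p under 0.05, and the median difference was 0.03, against 0.01 over all 10414 genes measured, of which 0.653% passed and 13.9% had an unadjusted p under 0.05. Those with the lowest p among higher values were Il17d, an IL-17 family cytokine (0.96, SE 0.27, adjusted p = 0.147), Socs3, an inhibitor that STAT3 induces (1.32, SE 0.59, adjusted p = 0.36), and the signalling adaptor Traf6 (0.59, SE 0.31, adjusted p = 0.45, with 2 of its 3 probes of that sign). Among lower values they were the IL-10 receptor chain Il10ra (−0.79, SE 0.40, adjusted p = 0.428), Stat3, the transcription factor downstream of IL-23R and IL-22RA (−0.59, SE 0.30, adjusted p = 0.435), and the IL-1 receptor Il1r1 (−0.43, SE 0.29, adjusted p = 0.57). Il1r1 was above background on 1 of 5 SKG and 2 of 3 BALBc arrays, so its difference rests mostly on background readings. Il17d was above background on 5 of 5 SKG arrays and 1 of 3 BALBc arrays. Its SKG values, 6.02, 5.72, 6.32, 6.00 and 5.65, all lay above the BALBc values of 4.50, 4.58 and 5.14. The strains likewise did not overlap for 15.3% of all probes tested, and Il17d was picked by its low p. Other cytokines of the list, namely Il6, Il21, Il25, Il27, Il17b and the chemokine gene Ccl20, were above background on no array.

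Epithelial genes that IL-17 and IL-22 are known to induce were also read. Of 29 listed genes 21 were measured, none passed, 6 had an unadjusted p under 0.05 (against 13.9% of all genes measured), and the median difference was −0.08. The antimicrobial lectin genes Reg3b and Reg3g, the best known IL-22 targets and named here after their values were seen, were bright in both strains while Il22 was at background. Reg3b gave 13.24 ± 0.40 (SD, n = 3) in the BALBc mice and 13.59 ± 0.09 (SD, n = 5) in SKG mice, and Reg3g gave 12.67 ± 0.31 and 12.64 ± 0.55 in the same order. Their fitted differences were 0.12 (SE 0.24) and 0.19 (SE 0.39), each with a limma adjusted p of 0.873, and within batch 3 they were −0.03 and 0.33. Those with the lowest p among higher values were the cytokine gene Il18 (1.62, SE 0.52, adjusted p = 0.204), the lectin gene Reg1 (0.94, SE 0.37, adjusted p = 0.29) and Retnlb, a goblet cell product (1.56, SE 0.65, adjusted p = 0.328). Among lower values they were Pigr, which carries IgA across the epithelium (−1.35, SE 0.37, adjusted p = 0.14), Zc3h12a, an RNase that restrains inflammatory transcripts (−0.76, SE 0.33, adjusted p = 0.347), and Lrg1 (−1.0, SE 0.46, adjusted p = 0.374). Pigr was 13.56 and 13.18 in the BALBc mice of batch 2, 11.80 in that of batch 3 and 10.36 to 11.17 in SKG. The strains thus did not overlap, as for 15.3% of all probes tested, while BALBc batches 2 and 3 differed by 1.57. Without SKG replicate 6, Il18 (1.95), Reg1 (1.13) and Lrg1 (−1.41) passed, with limma adjusted p-values of 0.0342, 0.0227 and 0.0353, and so did the kinase gene Jak2 of the pathway (1.03, adjusted p = 0.04). In that fit 483 probes were higher and 380 lower of 13582 tested. Without BALBc replicate 3, where batch and strain cannot be told apart, the target genes Fut2, Reg1, Retnlb and Saa1 were called higher and Pigr and Reg4 lower, and of the pathway genes Ebi3, Il17d, Il17rb and Traf6 higher and Il10rb, Il17rc, Jak1 and Stat3 lower.

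**Figure D3:**
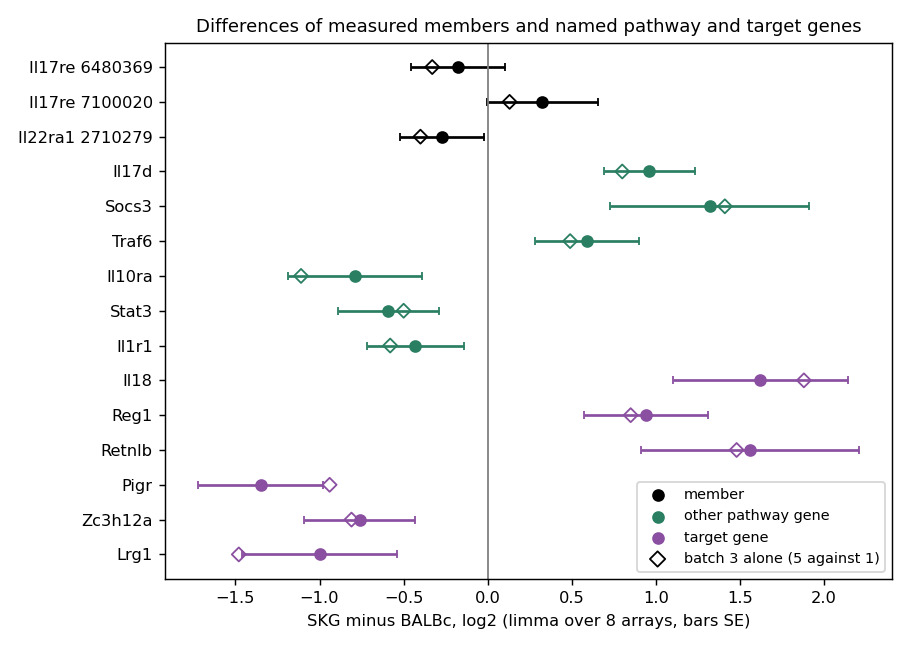
Fitted difference SKG minus BALBc on the log2 scale for the 3 member probes and for the named pathway and target genes, with bars for the SE over 8 arrays and open diamonds for batch 3 alone, where 5 SKG mice stand against 1 BALBc mouse. None of the 15 differences passed, and they run from −1.35 for Pigr to 1.62 for Il18.

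The cells that make or receive these cytokines were followed by their markers. Of 11 T cell markers 8 were measured and all 8 had lower fitted values in SKG (median −1.54 and −1.66 within batch 3), of which Cd8b1, a chain of the CD8 coreceptor, passed (−2.67, SE 0.50, limma adjusted p = 0.0429, and −3.27 within batch 3). Cd8b1 was 6.37 and 6.47 in the BALBc mice of batch 2, 8.74 in that of batch 3 and 5.11 to 6.42 in SKG, so the strains overlapped and SKG replicate 6 was the highest SKG value. Their summed level, on the linear normalised scale, was 359 to 729 in SKG and 862 to 2090 in BALBc, with the top of each range in SKG replicate 6 and BALBc replicate 3. Cd8a was above background on no array. Of 10 markers of type 3 innate lymphoid cells, 7 were measured, none passed, and the median difference was −0.43 (−0.39 within batch 3), with sums of 593 to 998 in SKG and 1130 to 1460 in BALBc. Ncr1, a receptor of a subset of these cells, was above background on no array. Of 12 macrophage and dendritic cell markers, the sources of IL-23, 8 were measured, none passed, and the median difference was −0.65 (−0.56 within batch 3), with sums of 977 to 1470 in SKG and 1400 to 2010 in BALBc. Itgam, Flt3 and Cd209a were above background on no array. Of all 10414 genes measured, 5131 had lower fitted values in SKG and 0.653% passed in either direction. Lower fitted values were not limited to these cells. All 5 smooth muscle markers measured were lower (median −0.60, −0.97 within batch 3), as were all 4 of B cells (−0.42 and −0.91). All 4 of endothelium were lower too (−0.25 and −0.44), and none of these markers passed. For BALBc, every value within batch 3 rests on replicate 3 alone. The 4 ileal enterocyte markers measured had higher fitted values (median 0.26, and 0.24 within batch 3), with none past the threshold. Of the 8 intestinal epithelium markers measured, 6 were higher and 2 lower (median 0.15, and 0.08 within batch 3), and none passed. In whole tissue, fewer cells of a type and less RNA per cell cannot be told apart, and the part of these shifts in the values of the members was not tested.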

How the data were processed

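Per the file headers, the authors exported an intensity per probe, the mean bead signal, from GenomeStudio 1.9.0 without normalisation. The deposited files also give the SD over beads, the count of beads per probe, which was used for bead standard errors, and a detection fraction, equal to 1 minus the detection p. A table of 5045 probes, deposited as log2 values with no stated centring, served as an alternative only. The submitters' processing notes name GenomeStudio and limma.

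Signals of the 8 arrays of batches 2 and 3 were corrected by normexp from detection p (offset 16), then quantile normalised as log2 values (neqc, limma 3.58.1, statmod 1.5.0, R 4.3.3). The 13775 of 25697 probes that passed a detection p of 0.05 on 3 or more arrays were fitted by limma with batch as a random block (consensus correlation 0.544), two-sided, with Benjamini-Hochberg adjustment over all of them and a threshold of 0.05. The fitted difference weighs the batches and is not the difference of the group means. A gene of several probes is given by its brightest kept probe, and members by every probe. Named from the lists were genes past the threshold, otherwise the 3 of each direction with the smallest p. Of the probe names, 14309 matched the GRCm38.p6 gene table by symbol, 2886 by an older name and 870 not at all. Replicates are separate animals, and the number of arrays and their split over batches bound the precision. The members and lists were chosen with earlier results of these data known. Alternatives covered background correction, scaling, filter, batch term and each animal left out. The lists hold 1 gene whose own values are not reported here.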

Additional observations from a re-analysis of the deposited data

Results flagged for a closer look

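Within the 5 SKG arrays, 2 of the named pathway genes had 1 animal far from the others. For Stat3, SKG replicate 7 (8.72 on the normalised log2 scale) lay apart from the other SKG mice (9.48 to 9.60), with a gap of 0.864 of the range against a critical value of 0.71. For Il1r1, SKG replicate 6 (5.20) lay apart from the rest (4.37 to 4.49), with a gap of 0.855 of the range. It was the only SKG array above background for Il1r1, so the other 4 values are background readings and their spacing has no meaning. Chance flags about 0.05 of such groups. No tested member probe was flagged.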

How the results depend on the processing

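No paired analysis was possible because the SKG arrays used (replicates 4 to 8) and the BALBc arrays (replicates 1 to 3) are of separate animals. The labels do not match animals between the strains. Over the single animals left out, Il17re 6480369 ran from −0.237 (without BALBc replicate 1) to 0.279 and Il22ra1 from −0.423 (without SKG replicate 6) to 0.106. Among member probes, Il17re 6480369 kept its direction and its side of the threshold in 17 of 19 alternatives, Il17re 7100020 in 18 of 19 and Il22ra1 in 15 of 16. Probe 6480369 turned to 0.0755 with no batch term. Without BALBc replicate 3, where batch and strain cannot be told apart and no batch term was fitted, it turned to 0.279, Il22ra1 turned to 0.106 and probe 7100020 passed. Leaving out 1 animal gave 0 to 1 called member probes, 0 to 4 higher and 0 to 4 lower genes in the pathway list, 0 to 4 higher and 0 to 2 lower in the target list, and 7 to 2939 higher and 17 to 2217 lower probes in all. The extremes of the last came without BALBc replicate 2 and without BALBc replicate 3, and leaving out SKG replicate 6 gave 483 higher and 380 lower. With no batch term there were 454 higher and 281 lower probes, with 1 pathway gene higher (Il17d) and 1 target gene lower (Pigr). Batch 3 alone gave 4 higher and 17 lower. Scaling to the 75th percentile gave 102 higher (69.4% of its calls, against 57.1%), with a median difference over all probes of 0.165 against 0.0102. Cyclic loess gave 26 higher (38.2% of its calls). Testing all probes gave 76 higher, a fixed batch block 60 lower, and 10 higher and 65 lower probes passed in the authors' deposited table. For the cytokines, a detection p under 0.10 let 1 probe pass on at least 3 arrays, and at least 1 array in place of 3 let 2 pass. For the receptors 2 probes, both of Il17re, passed at a detection p under 0.01 or on all 8 arrays, and 4 passed at a detection p under 0.10 or on at least 1 array. Apart from these the cause of the changes was not tested. The filter on signal above background kept 10 of the 13 member probes out of the test. With all 13 tested, 0 passed. Those 10 were above background on at most 2 of the 8 arrays, so their result cannot speak to a strain difference.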
